A study of Gallus gallus with 24 samples.

Results

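Cell cycle and DNA replication genes were followed in abdominal fat of cockerels from chicken lines selected for high growth (HG) or low growth (LG). The genes were chosen by a rule on names that used no measured value, though earlier results of these data were known. A spot belonged to the group when its annotated symbol began with CCNA, CCNB, CCND, CCNE, CDK, CDC or MCM plus a digit, ORC, RFC, BUB or AURK, or was PCNA, MKI67, TOP2A, RRM1 or RRM2. This gave 53 of the 6428 named genes, on 80 of the 19200 spots of an array. No annotated spot carried a CCNE or AURK symbol or MKI67. Enough measured spots were left to test 51 of the 53 genes, among 6184 named genes in all, and the 2 that could not be tested were CDC16 and CDKN1B. Because the choice followed the spelling of the symbols, 17 of the tested genes are neither cyclins, kinases or inhibitors nor replication or mitosis genes, and these were kept apart. Many of them act mainly outside the cell cycle, for example CDC42 and its partners, and some touch on it, as CDK2AP1 does.

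A dividing cell passes a fixed sequence of steps, each with its own genes. D-type cyclins start the cycle in G1 by binding cyclin-dependent kinases, and inhibitors such as CDKN1A (p21) and CDKN1B (p27) hold those kinases back. Before S phase the origin recognition complex (ORC) and the MCM helicase are loaded on the DNA, after which the clamp PCNA, its loader RFC and ribonucleotide reductase serve the replication forks. CCNB1 with CDK1 then drives entry into mitosis, where the BUB proteins watch the spindle and CDC20 turns on the anaphase-promoting complex. Mature fat cells rarely divide, and in growing fat most dividing cells are precursors and other cells of the stroma.

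The birds were Bresse-Pile (meat-type) chickens bred apart on juvenile and adult body weight, and every bird was a fed cockerel. Per the study's methods, the lines were housed apart until 3 wk, with feed pellets crushed for LG, and together after that. At 1 and 3 wk, and in late against early growth, line therefore cannot be told apart from housing and form of feed. The mean of the 6 ages and the interaction of genotype and age include 1 and 3 wk, and so share this limit in part. Each of the 24 arrays set 1 HG bird against 1 LG bird of the same age, with 4 arrays at each of 6 ages, every 2 wk between 1 and 11 wk, so that 48 separate birds were used and replicates are separate birds. Replicates 2 and 4 had the HG bird labelled red, and replicates 1 and 3 had the LG bird labelled red. The value of a gene on an array is the log2 ratio of HG over LG after the array's median was set to 0, averaged over the gene's spots. A positive value means higher in the HG bird, and a value of 1 is a 2-fold difference. Whether the deposited ratio had red on top was not written beside the values; red over green was taken as likely, from how the scanning software forms a ratio and from the labelled dyes with their scanning wavelengths, and the sign of every value depends on that. Only ratios were at hand, so a value cannot tell a rise in HG from a fall in LG, no level of a gene in either line is given, and the presence of adipocyte transcripts could not be checked as a level. In a piece of tissue, fewer cells of a type and less RNA per cell cannot be told apart.

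The number of arrays limits the precision, and 17380 to 18529 spots were measured on each. Arrays with the same dye orientation resembled each other (mean r of 0.19 across named genes, 132 pairs), whereas those with opposite orientation were negatively correlated (mean r of -0.15, 144 pairs), so a dye coefficient was fitted for every gene. It passed the test for 19 of the 51 genes (37.3%), against 45.2% of all named genes. Replicate 1 of 5 wk stood apart for the genes described here, and several results that rest on it are given with and without it.

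As a group, the cell cycle genes did not lean toward either line. Over the 6 ages 30 of the 51 were higher in HG and 21 were lower (58.8% higher, against 57.3% of all named genes), and their median log2 ratio was 0.02, the same as the 0.02 of all named genes. The genotype effect, which is the mean of the 6 ages, passed an adjusted P of 0.05 for 3 of the 51 genes, against 2.04% of all named genes. All 3 were higher in HG, where 0.922% of all named genes were called. They were CCND1 (cyclin D1), CDC42BPA and CDK2AP1. At an unadjusted P under 0.05, 4 genes passed (7.84%), against 12.2% of all named genes, the additional gene being CDC5L. Among the 26 genes of DNA replication and mitosis together with the A- and B-type cyclins and CDK1, 14 were higher and 12 lower in HG with a median of 0.03, and 0 passed in limma either after adjustment or at an unadjusted P under 0.05.

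**Figure D1:**
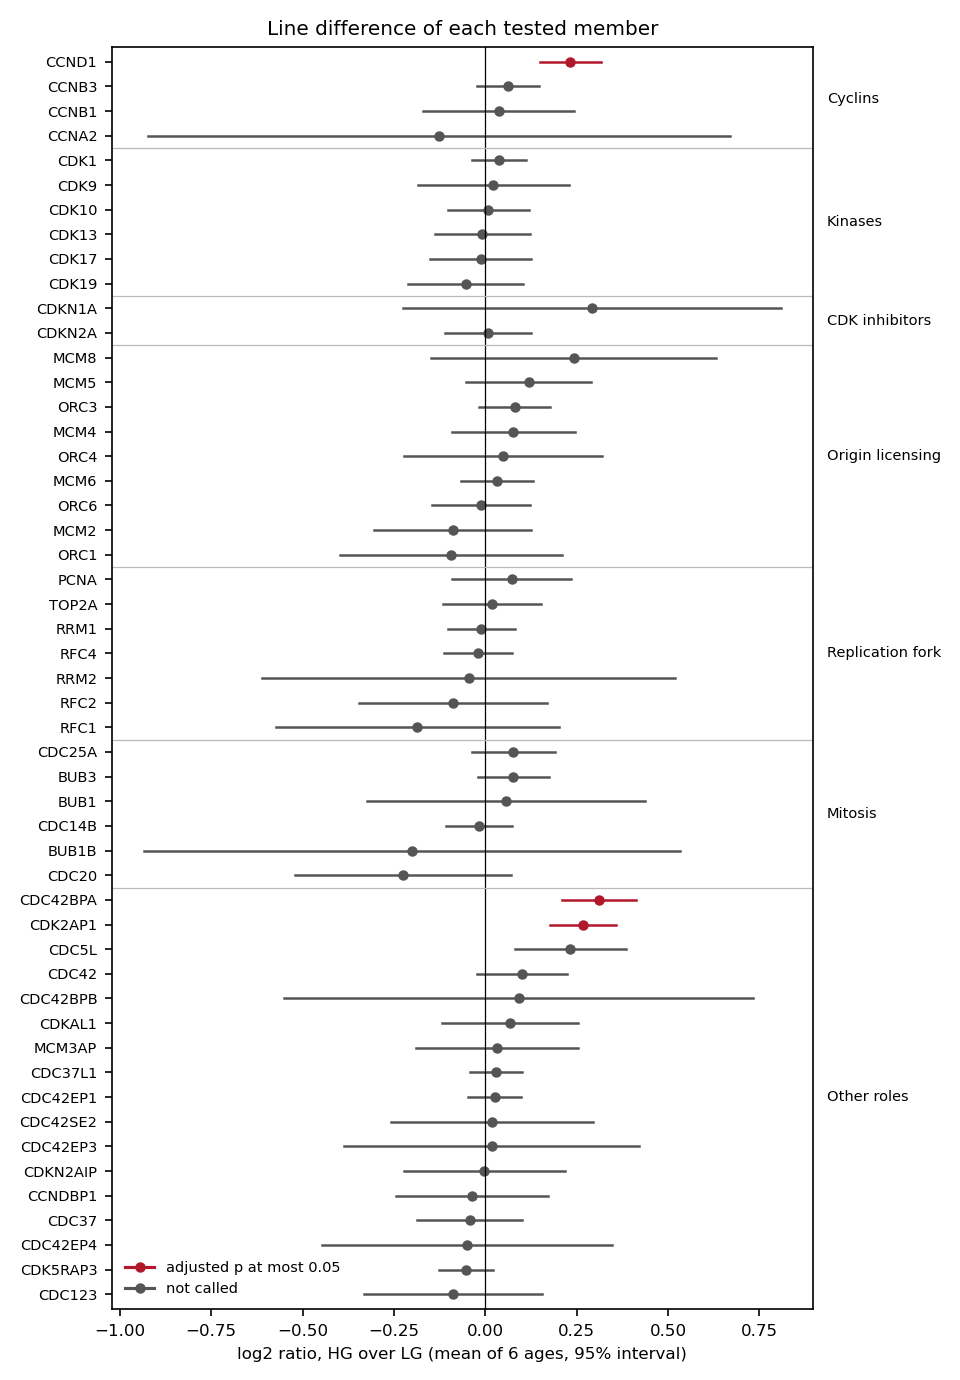
Each row is 1 of the 51 tested genes, ordered by role. The point is the log2 ratio of HG over LG as the mean of 6 ages, the bar its 95% interval from the linear model over 24 arrays, and red marks an adjusted P of at most 0.05. CCND1, CDC42BPA and CDK2AP1 are red and stand to the right of 0, and no gene of replication or mitosis is red.

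CCND1 was higher in HG on 21 of 24 arrays. Cyclin D1 binds CDK4 and CDK6 and is the cyclin through which growth signals enter the cycle. At 3 wk its log2 ratios on the 4 arrays were 0.44, 0.44, 0.23 and 0.51, and at 11 wk they were 0.09, 0.23, 0.16 and 0.36. At 7 wk they were 0.21, 0.53, 0.26 and 0.42. HG was thus higher on every array of these 3 ages, and the remaining ages each held 1 array below 0, at -0.05 (1 wk), -0.32 (5 wk, replicate 1) and -0.11 (9 wk). The genotype effect was 0.23 (SE 0.04, 95% interval 0.15 to 0.32, adjusted P = 0.00264), a 1.17-fold difference. Without replicate 1 of 5 wk it was 0.25 (adjusted P = 0.000847).

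CDC42BPA encodes a kinase that acts below the small GTPase CDC42 on the actin-myosin skeleton, and it entered the group by its symbol. It was also higher in HG on 21 of 24 arrays. Its ratios at 9 wk were 0.45, 0.27, 0.66 and 0.24 and those at 11 wk were 0.14, 0.52, 0.59 and 0.47, so that no HG bird of these ages lay below its LG partner. The 3 arrays below 0 were a pair at 1 wk (-0.22 and -0.01) and 1 at 5 wk (-0.33). The genotype effect was 0.31 (SE 0.05, 95% interval 0.21 to 0.41, adjusted P = 0.00115), a 1.24-fold difference. The age means lay between 0.13 at 1 wk and 0.43 at 11 wk.

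CDK2AP1 encodes a small protein that binds CDK2 and is known in mammals as a brake on it. It was higher in HG on 16 of 24 arrays, with a genotype effect of 0.27 (SE 0.04, 95% interval 0.18 to 0.36, adjusted P = 0.00137), a 1.2-fold difference. Its ratios at 1 wk were 0.37, 0.06, 0.34 and -0.03, with HG higher on 3 of 4 arrays, and its ratios at 7 wk were 0.94, 0.23, 0.68 and 0.20, all above 0, while those at 5 wk were -0.16, -0.08, 0.26 and -0.23. At 9 wk they were 0.91, -0.18, 1.01 and 0.33, and at 11 wk 0.73, 0.26, 0.70 and -0.02. At every age but 5 wk the arrays with the LG bird in red (replicates 1 and 3) gave the higher values, which the dye coefficient of -0.24 (adjusted P = 0.000145) describes. For CDC42BPA the dye coefficient had the same sign (-0.16, adjusted P = 0.00943), and for CCND1 it was 0.08 (adjusted P = 0.0969). Without the dye coefficient the genotype effect of CDK2AP1 had an adjusted P of 0.0804.

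**Figure D2:**
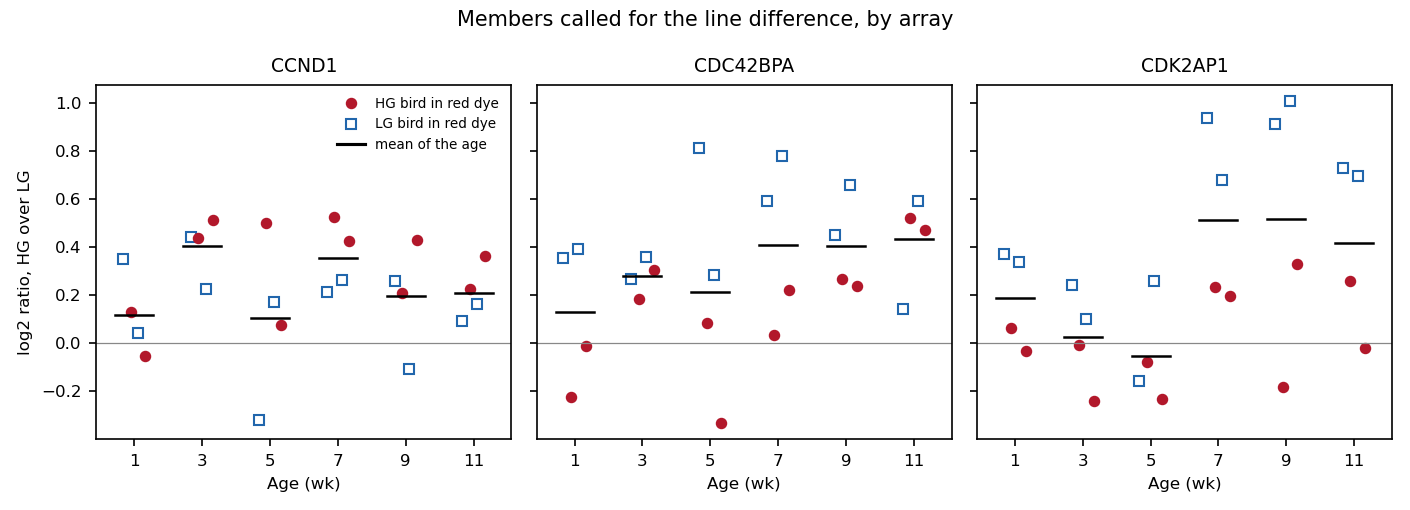
The log2 ratio of HG over LG (vertical axis) by age in wk (horizontal axis) for CCND1, CDC42BPA and CDK2AP1, 1 symbol per array: red circles have the HG bird in the red dye, blue open squares the LG bird, and a short black line marks the mean of the 4 arrays at each age. CCND1 lies above 0 on 21 arrays, whereas the mean of CDK2AP1 is 0.02 at 3 wk, -0.05 at 5 wk and 0.51 at 7 wk.

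The spots of a gene did not always move together. CCND1 stood on 2 spots, and the difference lay on the second: its genotype effect was 0.44 (SE 0.07, adjusted P = 0.000983 over 16895 probes, HG higher on 22 of 24 arrays), against 0.02 (SE 0.04, adjusted P = 0.874, HG higher on 13 of 24 arrays) for the first. On the second spot the 24 arrays had a lowest value of -0.64, a median of 0.53 and a highest of 1.01. On the first spot the lowest was -0.57, the median 0.07 and the highest 0.38. Across the 24 arrays the values of these spots, with age and dye left in, were uncorrelated (r of -0.06). The spots around the second CCND1 spot had a median genotype effect of 0.10, and those around the single spots of CDC42BPA and CDK2AP1 had 0.01 and -0.02. Which of the CCND1 spots follows the transcript was not tested.

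PCNA, the sliding clamp of the replication fork, showed the same kind of split. Its first spot ranged from -0.91 to 2.91 with a genotype effect of 0.20 (SE 0.16, adjusted P = 0.674). Its second spot lay above 0 on all 12 arrays with the HG bird in red and below 0 on all 12 arrays with the LG bird in red, and its genotype effect was -0.05 (SE 0.03, adjusted P = 0.540). The second spot therefore followed the dye on every array. The 2 spots of CDC20 ran against each other (r of -0.57, with age and dye left in), with genotype effects of 0.05 and -0.53. The first CDC20 spot was above 0 on 13 of 24 arrays, among them all 12 with the HG bird in red. What part the dye had in this r was not tested. Of the 20 genes that stood on several spots, 9 had the same sign of the genotype effect on every spot. With dye taken out and age left in, different spots of 1 gene had a mean correlation of 0.09 over 33 pairs for these genes. For all genes it was 0.06 over 4952 pairs, and for spots printed side by side 0.17 or 0.22, depending on the direction.

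**Figure D3:**
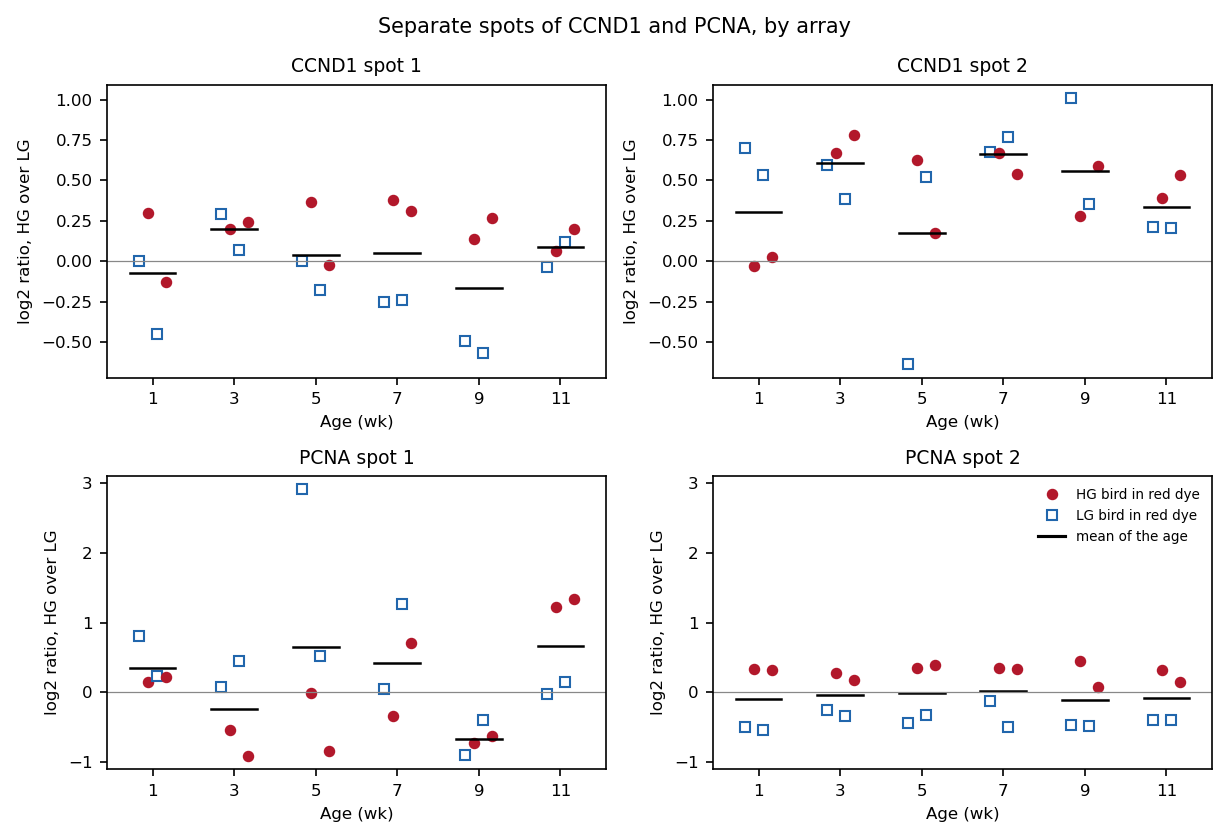
The log2 ratio of HG over LG (vertical axis) by age in wk (horizontal axis) on the separate spots of CCND1 (top) and PCNA (bottom), 1 symbol per array: red circles have the HG bird in the red dye, blue open squares the LG bird, and a short black line marks the mean of each age. CCND1 spot 2 is above 0 on 22 of 24 arrays and spot 1 on 13, and PCNA spot 2 divides by dye at every age.

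Of the other cyclins, none passed the test. CCNB3, a B-type cyclin, had a genotype effect of 0.06 (SE 0.04, adjusted P = 0.603). CCNB1, the cyclin of mitotic entry, had 0.04 (SE 0.10, 95% interval -0.17 to 0.24, adjusted P = 0.915). CCNA2, the cyclin of S phase and G2, was measured on 22 arrays, which ranged from -4.17 to 4.00, and its effect of -0.13 had an SE of 0.38. Its residual SD of 1.86 was the highest of the 51 genes.

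The cyclin-dependent kinases had a median of 0.00 over 6 genes, 3 higher and 3 lower in HG. CDK1, the mitotic kinase, had a narrow spread, with a lowest value of -0.24, a median of 0.03 and a highest of 0.38 over 24 arrays. Its genotype effect was 0.04 (95% interval -0.04 to 0.11, adjusted P = 0.731). CDK19, a kinase of the Mediator complex, had -0.05 (SE 0.08, adjusted P = 0.822). CDK9, the kinase that releases paused RNA polymerase II, had 0.02 (SE 0.10, adjusted P = 0.955). CDK10, CDK13 and CDK17 lay between -0.01 and 0.01.

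Of the inhibitors, CDKN1A was measured on 20 arrays and was higher in HG on 10 of them. Its genotype effect was 0.29 (SE 0.24, adjusted P = 0.695), and it spread more over ages than any other gene described here. All 3 measured arrays of 7 wk were below 0 (-0.62, -1.46 and -1.95), and all 3 of 11 wk were above it (0.05, 3.04 and 2.31). CDKN2A, known in mammals as the INK4a/ARF tumour suppressor gene and placed here by its symbol, had 0.01 (SE 0.06, adjusted P = 0.967). CDKN1B was measured on 10 arrays only, with HG higher on 6 and a median of 0.53, and was not tested.

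The 9 licensing and helicase genes gave 6 values above 0 and 3 below it, with a median of 0.05 and 0 passing (0 at an unadjusted P under 0.05). ORC3 had the smallest P among them, with a genotype effect of 0.08 (SE 0.05, adjusted P = 0.533) and HG higher on 15 of 24 arrays. MCM5, a subunit of the replicative helicase, had 0.12 (SE 0.08, adjusted P = 0.617). MCM8, a helicase known for its part in recombination, had 0.24 (SE 0.19, adjusted P = 0.669). The other 6 genes (MCM2, MCM4, MCM6, ORC1, ORC4 and ORC6) lay between -0.09 and 0.08.

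The 7 fork genes gave 2 values above 0 and 5 below it, with a median of -0.02 and 0 passing (0 at an unadjusted P under 0.05). RFC1, the large subunit of the clamp loader, was higher in HG on 4 of 24 arrays only. The 24 values had a lowest of -2.14, a median of -0.35 and a highest of 3.62, and the genotype effect was -0.19 (SE 0.19, adjusted P = 0.754). Most HG birds thus lay below their LG partners, and a few lay far above. PCNA had 0.07 (95% interval -0.09 to 0.23, adjusted P = 0.769) and RFC2 had -0.09 (SE 0.12, adjusted P = 0.822). TOP2A, the topoisomerase that untangles sister chromatids, had 0.02 (95% interval -0.12 to 0.15, adjusted P = 0.940). RFC4, RRM1 and RRM2 lay between -0.05 and -0.01.

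The 6 mitosis genes split evenly, 3 above and 3 below 0, with 0 passing (0 at an unadjusted P under 0.05). BUB3, of the spindle checkpoint, had 0.08 (SE 0.05, adjusted P = 0.573). CDC20, the activator of the anaphase-promoting complex, had -0.23 (SE 0.14, adjusted P = 0.586). CDC25A, the phosphatase that switches on cyclin-dependent kinases, had 0.08 (SE 0.05, adjusted P = 0.632). BUB1, BUB1B and CDC14B lay between -0.20 and 0.06. CDC16, a subunit of the anaphase-promoting complex, was measured on 17 arrays with a median of -0.40 and was not tested.

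Among the 17 genes kept apart from these roles, 11 were higher in HG and 6 lower, with a median of 0.03, and the 2 called were CDC42BPA and CDK2AP1, of which the second, as a partner of CDK2, could also be placed with the inhibitors. CDC5L, a core protein of the spliceosome, came next: it was higher in HG on 18 of 24 arrays, with a genotype effect of 0.23 (SE 0.07, unadjusted P = 0.00475, adjusted P = 0.125). At 5 wk its 4 ratios were 0.43, 0.12, 0.68 and 0.97. Of the 24 omissions of an array, it passed the adjusted threshold in 1, that of replicate 4 of 1 wk, at -0.59 (0.27, adjusted P = 0.0427). The highest adjusted P among these omissions was 0.220. Under the 10 other settings CDC5L did not pass (adjusted P of 0.0824 to 0.212). CDC42 itself, on 3 spots, had 0.10 (SE 0.06, adjusted P = 0.551), and the other partners of CDC42 lay between -0.05 and 0.09. The remaining 13 of the 17 genes, those other than CDC42 and the 3 already named, lay between -0.09 and 0.09.

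The precision set what could be seen. For 45 of the 51 genes (88.2%, against 91% of all named genes) the 95% interval of the genotype effect lay within 1.5-fold of equality, and for all 51 within 2-fold (98.4% of all). The median residual SD was 0.39 log2 units, against 0.33 for all named genes, and 5 of the 51 had a residual SD above 1. These intervals describe the spread of array ratios, averaged over spots that did not always move together. They do not bound the difference of the transcripts, since how far array ratios fall short of it was not tested.

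Each age was then tested on its own. The fitted mean of an age is its coefficient in the model, with dye taken out. It is the plain mean where all 4 arrays were measured, and can differ where an array was missing or left out. At 1 wk 0 of the 51 genes passed, as did 0% of all named genes, and at an unadjusted P under 0.05 there was 1, CDK19, against 6.76% of all. At 3 wk 0 passed (0% of all), and 4 passed unadjusted (CCND1, CDC42BPA, CDC42SE2 and ORC4) against 3.28% of all. At 5 wk 0 passed, against 0.372% of all, and 3 passed unadjusted (CCNB1, CDC5L and MCM2) against 7.29%. At 7 wk CDK2AP1 passed, against 0.226% of all named genes, or 0.146% among those higher in HG, and 7 passed unadjusted (13.7%) against 7.1%. At 9 wk 0 passed, against 0.0323%, and 4 passed unadjusted (CDC42BPA, CDK2AP1, CDK5RAP3 and MCM5) against 7.47%. At 11 wk 0 passed, against 0.0647%, and 5 passed unadjusted (CCND1, CDC42BPA, CDK2AP1, CDC37L1 and CDKN1A) against 6.19%. The median over the 51 genes lay between -0.02 at 7 wk and 0.06 at 5 and 9 wk, and the medians of all named genes at these ages were 0.03, 0.03 and 0.02.

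**Figure D4:**
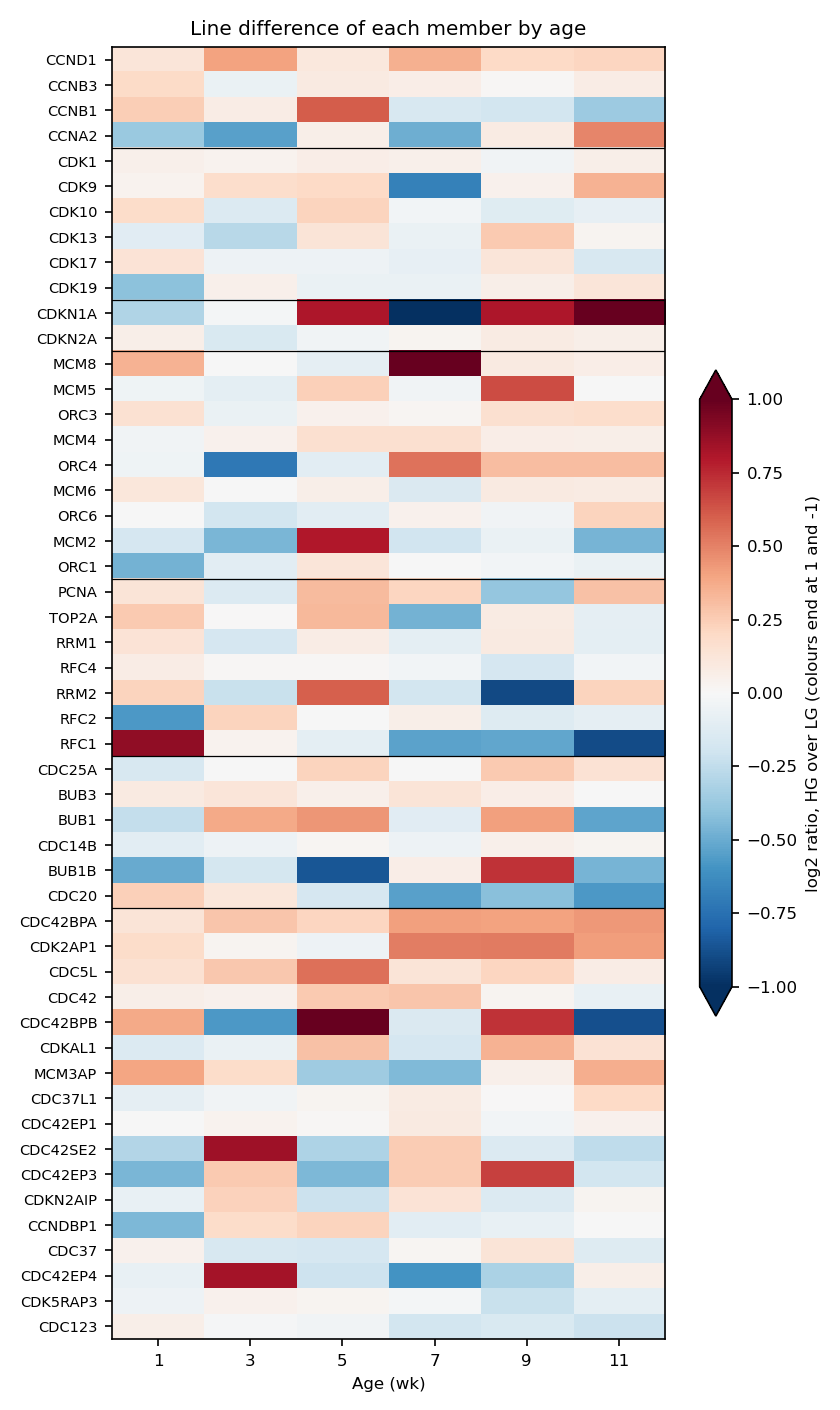
Colour gives the fitted mean log2 ratio of HG over LG, with dye removed. Red is higher in HG and blue lower. Rows are the 51 tested genes, ordered by role, and columns are ages in wk. CDC42BPA is red at all 6 ages, CDKN1A reads -1.55 at 7 wk and 2.01 at 11 wk, and no role has 1 colour throughout.

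CDK2AP1 was the gene called at 7 wk, with 0.51 (SE 0.10, adjusted P = 0.0436). At 9 wk its value was 0.52 (adjusted P = 0.0637) and at 11 wk it was 0.42 (adjusted P = 0.301). The call at 7 wk was lost on leaving out any of 18 of the 24 arrays (highest adjusted P 0.210) and under 5 of 10 other settings. With probes tested one by one, its single spot had an adjusted P of 0.0509 over 16895 probes.

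The 7 genes with an unadjusted P under 0.05 at 7 wk were CCND1, CDC42BPA, CDK2AP1 and MCM8 on the higher side and TOP2A, CDKN1A and CDK9 on the lower. TOP2A was below 0 on 3 of the 4 arrays (0.03, -0.88, -0.66 and -0.39), with a mean of -0.47 (SE 0.16, adjusted P = 0.364). Its 3 spots averaged -0.41, 0.02 and -1.03 at this age, the last with an adjusted P of 0.0591 over 16895 probes, so that 2 of them were low and the other was not. CDK9 was below 0 on all 4 arrays (-1.78, -0.45, -0.22 and -0.25), with a mean of -0.68 (adjusted P = 0.415). Without replicate 1 its fitted mean was -0.34 (adjusted P = 1.00). MCM8 read 1.42, -0.13, 2.64 and 0.22, with a mean of 1.04 (adjusted P = 0.602), or a fitted mean of 0.49 without replicate 3.

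Single arrays set several of the larger means at other ages, but not all of them. MCM5 at 9 wk read 0.20, 2.00, 0.38 and 0.01, which gave a mean of 0.65 (adjusted P = 0.391), or a fitted mean of 0.24 without replicate 2. RFC1 at 1 wk read 0.37, -0.20, 3.62 and -0.24, with a mean of 0.89, or a fitted mean of 0.01 without replicate 3. CDKN1A at 5 wk read -0.92, 0.77 and 3.20 on its 3 measured arrays, with a fitted mean of 0.81, or -0.07 without replicate 4. CDKN1A at 11 wk, with the highest fitted mean of all (2.01, adjusted P = 0.555), rested on 2 of its 3 arrays. CCND1 at 3 wk rested on no single array, since its 4 values lay between 0.23 and 0.51, and its mean was 0.40 (SE 0.10, unadjusted P = 0.000547), which did not pass after adjustment (adjusted P = 0.845).

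Arrays were also counted without a model. At 1 wk 4 of the 49 genes measured on all 4 arrays had every value on 1 side of 0 (8.16%, against 10.6% of all named genes). The counts were 4 of 48 at 3 wk (8.33%, against 7.56%), 4 of 49 at 5 wk (8.16%, against 11.6%) and 9 of 48 at 7 wk (18.8%, against 12.2%). They were 6 of 50 at 9 wk (12%, against 8.79%) and 7 of 49 at 11 wk (14.3%, against 9.88%). At 7 wk the 9 were CCND1, CDC42BPA, CDC42SE2, CDK2AP1 and MCM4 above 0 and CCNB1, CDC42EP4, CDK9 and RFC1 below it. At 9 wk the fork genes PCNA, RFC1, RFC4 and RRM2 lay below 0 on all 4 arrays, PCNA with -0.69, -0.14, -0.44 and -0.28, while CDC42BPA and MCM5 lay above it. The PCNA values are means of its 2 spots, and the second spot alone read -0.48, 0.45, -0.49 and 0.08.

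Replicate 1 of 5 wk stood apart. In this pair of birds 9 of the 51 genes (17.6%) were more than 2-fold higher in the HG bird, against 4.54% of all named genes, and 0 were more than 2-fold lower. On the 23 other arrays the highest such count was 5. The array had the LG bird in red and 18183 measured spots, and the median absolute deviation of its log2 ratios was 0.49, within the 0.31 to 0.76 of all arrays. The genes were CDC42BPB at 4.44, RRM2 at 3.07, CCNB1 at 2.41, MCM2 at 2.33, BUB1 at 2.11, RFC1 at 1.496, PCNA at 1.23, ORC4 at 1.15 and CDK10 at 1.03. Most of these serve DNA synthesis or mitosis. Of the 26 genes of DNA replication, mitosis, the A- and B-type cyclins and CDK1, 20 lay above 0 and 7 above 1 on this array (median 0.38). Of the 25 other genes 13 lay above 0 and 2 above 1 (median 0.06).

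A list of other cell cycle genes, none of them in the group, was high on this array too. Of 63 measured genes 13 (20.6%) were above 1, with a median of 0.23, and the highest percentage on any other array was 9.52. They included the condensin subunits SMC2 (3.83) and SMC4 (2.78), the cohesin subunit SMC3 (1.55), the microtubule regulator STMN1 (3.46), the mitotic kinesin KIF20A (1.84) and the anaphase-promoting complex subunit ANAPC5 (3.62). The rise was not uniform: 74.6% of the list lay above 0 on this array, and FBXO5 (-2.08) and NCAPH (-1.88) lay far below it. On the same array the median of the adipocyte markers was -0.44, that of stromal markers -0.38, that of endothelial markers -0.25, and those of leukocyte and erythrocyte markers 0.02 and 0.03. The spots agreed in part. Both MCM2 spots that entered the mean were high (2.75 and 1.92). A further MCM2 spot, measured on 14 arrays and therefore not used, read -0.695. PCNA read 2.91 and -0.45, and CDC25A read 2.69 on 1 spot and 0.21 to 0.40 on the other 3. The spots printed around the high ones had medians from -0.20 to 0.61. As 1 HG and 1 LG bird were compared on 1 array, with no repeat, the part that these birds, their tissue pieces or the array had in the pattern cannot be told apart.

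**Figure D5:**
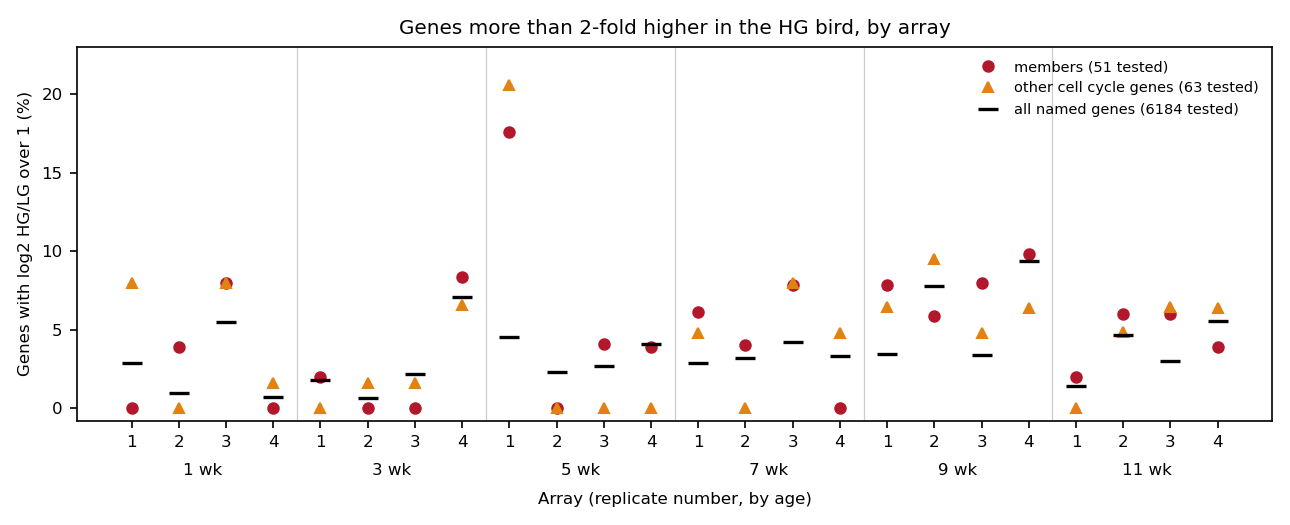
Percentage of genes with a log2 ratio of HG over LG above 1 (vertical axis) on each of the 24 arrays (horizontal axis, replicates 1 to 4 within each age): red circles are the genes described here, orange triangles the list of other cell cycle genes, and black bars all named genes. At replicate 1 of 5 wk the values are 17.6, 20.6 and 4.54%, and on every other array both lists lie below 10%.

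Several means of 5 wk rested on this array, in whole or in part. CCNB1 read 2.41, 0.10, 0.14 and -0.24 at 5 wk, with a mean of 0.60 (adjusted P = 0.520). Its fitted mean was 0.07 without replicate 1. MCM2 read 2.33, 0.01, 0.89 and -0.02, with a mean of 0.80 (adjusted P = 0.300), or a fitted mean of 0.40 without that array. PCNA read 1.23, 0.17, 0.10 and -0.23, with fitted means of 0.32 and -0.03 with and without it. Of the 3 PCNA values left, 2 were above 0. For RRM2 the fitted means with and without the array were 0.59 and -0.28, and for BUB1 0.44 and -0.22. For CDC42BPB, with 2 arrays left, they were 1.05 and -0.64. Over the group, 33 of the 51 genes had a fitted mean above 0 at 5 wk (median 0.06), and 26 did without the array (median 0.00). TOP2A did not depend on it to the same extent: its ratios were 0.64, -0.07, 0.06 and 0.66, with fitted means of 0.32 and 0.21. The called genes kept their genotype effects without this array (0.28 for CDC42BPA, adjusted P = 0.00123, and 0.29 for CDK2AP1, adjusted P = 0.000564).

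The lines were also compared between late and early growth, as the mean of 9 and 11 wk minus that of 1 and 3 wk. After adjustment 0 of the 51 genes passed, as did 0% of all named genes, and 6 passed unadjusted, against 4.45% of all. The 3 largest differences belonged to CDKN1A (1.57, SE 0.58, unadjusted P = 0.0161), CCNA2 (0.74, SE 0.91) and ORC4 (0.69, SE 0.32, unadjusted P = 0.0420). The 3 lowest belonged to RFC1 (-1.17, SE 0.45, unadjusted P = 0.0186), CDC20 (-0.67, SE 0.35, unadjusted P = 0.0684) and CDC42EP4 (-0.51, SE 0.46). CDK2AP1 had the smallest P, with means of 0.47 late and 0.11 early (difference 0.36, SE 0.10, unadjusted P = 0.0026). CDK13 (0.34) and CDC25A (0.29) were the other genes with an unadjusted P under 0.05.

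RFC1 shows how such a difference was made up. Its late ratios were -0.46, -0.82, -0.14 and -0.64 at 9 wk and -0.80, -0.54, -2.14 and -0.09 at 11 wk, all below 0. Its early ratios were 0.37, -0.20, 3.62 and -0.24 at 1 wk and -0.16, -0.19, 0.79 and -0.29 at 3 wk, so that 3 of 8 lay above 0. At 7 wk the 4 arrays (-0.66, -0.78, -0.42 and -0.29) were already all below 0. ORC4, a subunit of the origin recognition complex, had a dye coefficient of -0.73 (adjusted P = 0.000152), and from 7 to 11 wk its arrays with the HG bird in red read -0.83, 0.23, -0.66, -0.53, -0.15 and -0.52, against 1.00, 1.76, 1.26, 1.16, 0.56 and 1.34 with the LG bird in red. Among its early arrays, replicate 4 of 3 wk read -2.94, and the other 3 wk arrays lay between -0.195 and 0.31. What part that array had in the late against early difference of ORC4 was not tested.

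The interaction of genotype and age was called for 0 of the 51 genes, against 0.0323% of all named genes, and 4 passed unadjusted, against 4.87% of all. They were CDK2AP1 (adjusted P = 0.560), CDKN1A (adjusted P = 0.811), MCM2 (adjusted P = 0.904) and TOP2A (adjusted P = 0.906). MCM2, a subunit of the replicative helicase, owed its 5 wk value in part to the array described above.

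The wider pathway was read from the list of other cell cycle genes. Of 143 other cell cycle genes listed, 63 were tested, 32 of them higher and 31 lower in HG, with a median of 0.00. In limma 0 passed for the genotype effect, against 2.04% of all named genes, and 5 passed at an unadjusted P under 0.05 (7.94%), against 12.2% of all. SKP1, a subunit of the SCF ubiquitin ligase, had the smallest P with 0.16 (SE 0.05, adjusted P = 0.111). FBXO5, an inhibitor of the anaphase-promoting complex, had the lowest value of those 5 with -0.33 (SE 0.13, adjusted P = 0.276). After adjustment 0 of the 63 passed at any single age, in late against early growth or for the interaction.

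Markers of cell types were read in the same fit. Of the adipocyte markers 9 of 12 were tested and 2 were called, SCD at 1.14 (adjusted P = 2.66e-06) and DGAT2 at 0.33 (adjusted P = 0.0012), both enzymes of fat synthesis, and the median was 0.10. PLIN1 and FABP4, which define fat cells, had 0.05 each. Of the stromal and preadipocyte markers 9 of 12 were tested and 0 called (3 at an unadjusted P under 0.05), with 8 of 9 above 0 and a median of 0.09. Leukocyte (9 of 16 tested), endothelial (9 of 11) and erythrocyte (3 of 12) markers had medians of -0.07, -0.03 and 0.01, with 0 called (4, 0 and 0 unadjusted). Over the 24 arrays the median of the adipocyte markers ranged from -0.44 to 0.95 and that of the stromal markers from -0.72 to 0.68. The median of the 51 cell cycle genes ranged from -0.12 to 0.21, but it covers more genes, so the ranges are not alike. Over smaller parts of the group the median ranged from -0.36 to 0.64 (7 fork genes) and from -0.17 to 0.29 (9 licensing genes). What part cell composition had in the values above was not tested.

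Across the 24 arrays, after age and dye were taken out, pairs of genes ran both with and against each other. The median correlation was 0.01 over 1275 pairs of the 51 genes, and 0.05 over 325 pairs of the 26 replication and mitosis genes. The closest pairs were CDC42EP3 with RFC2 (r of 0.82), CDC42EP3 with CDC42SE2 (0.82) and CCNB3 with ORC3 (0.79). The pair most opposed was CDC14B with CDK2AP1 (r of -0.83). PCNA and RRM2, which are both used in DNA synthesis, had 0.66. CDC42BPA, which is not a replication gene, had 0.69 with PCNA and 0.65 with RRM2. Replicate 1 of 5 wk was high for PCNA (1.23) and RRM2 (3.07), and no r was computed without that array. These are descriptions over arrays that share age means and a dye coefficient, and no test was made of them.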

How the data were processed

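RNA of abdominal fat was hybridised to 2-colour spotted cDNA arrays, 1 HG and 1 LG cockerel per array. The authors scanned them, removed poor spots by hand and deposited log2 ratios per spot. Their methods describe LOWESS normalization, but array medians ranged from -0.336 to 0.32, so these deposited values were taken as not normalized. Values with no ratio (4.38%) and at the ceiling (0.475%) were missing. Groups came from the labels. The last 2 numbers of the spot identifiers of the annotation were read in exchanged order, since spots of 1 gene then correlated better (mean r of 0.0495, against 0.00407 as given); all 80 spots of these genes had current symbols in RefSeq's gene table. Intensities were not used here.

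Each array's median was subtracted and signs were set to HG over LG. A probe needed 3 or more measured arrays at each age, which 16895 met, and probes of a symbol were averaged. limma 3.58.1 in R 4.3.3 (lmFit, eBayes) fitted 6 age coefficients and 1 dye coefficient, with Benjamini-Hochberg adjustment over 6184 genes and a threshold of 0.05. Counts of arrays above 0 were made before the dye coefficient was removed. The code was tested on simulated data.

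The genes and lists were chosen with earlier results of these data known. Values are given in full for every gene called, for the 3 of smallest P in each role and for the 3 highest and 3 lowest in late against early growth. Genes shown for single ages, spots or arrays were chosen after their values were seen.

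Alternatives were no centring, equal spread, no dye coefficient, a replicate block, other filters on missing spots, 1 probe per gene, probes tested one by one, array weights, the methods' t-test at 7 wk and each array left out. Printed blocks centred on their own medians and subtraction of the surrounding spots' median were chosen after seeing the data.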

Additional observations from a re-analysis of the deposited data

Results flagged for a closer look

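For 13 genes and for the median of the group, the 4 arrays of an age were searched for a value far from the other 3 by Dixon's test at 95%. Of 80 such sets of 4 arrays 10 held one. Chance marks about 5% of sets, but several of these genes were picked because of a distant array, so the count cannot be set against that share. At 5 wk replicate 1 was the distant array for CCNB1 (2.41, against -0.24 to 0.14 on the others), RFC1 (1.496, against -0.75 to -0.48), CDK1 (0.381, against -0.08 to -0.02) and the median over the group (0.174, against -0.04 to -0.02). On that array the spots around CDK1 had a median of 0.583, above the value of CDK1 itself. Those around CCNB1 and RFC1 had medians of 0.17 and -0.12. RFC1 also had replicate 3 of 1 wk at 3.62 and replicate 3 of 3 wk at 0.786. The others were CDK9 on replicate 1 of 7 wk (-1.78), CCNB1 on replicate 2 of 7 wk (-0.551), MCM2 on replicate 3 of 11 wk (0.585) and TOP2A on replicate 2 of 3 wk (-0.172).

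For 3 genes every measured array of an age lay above 0 and every array of another age below it. CDKN1A was higher in HG at 11 wk and lower at 7 wk, its fitted means, with dye taken out, being 3.56 apart over 3 arrays at each age. CDC42SE2, a small protein that binds CDC42, was higher in HG at 7 wk and lower at 5 wk, 0.563 apart. MCM3AP, known in mammals for its part in mRNA export, was higher in HG at 1 and 11 wk and lower at 5 wk, 0.746 and 0.718 apart. These pairs of ages were picked for their signs, and the differences between them were not tested. The interaction over all 6 ages, in limma, had adjusted P of 0.811 for CDKN1A and of 1.00 for both CDC42SE2 and MCM3AP.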

How the results depend on the processing

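The genotype effect was called for 2 or 3 of the genes under 11 alternatives and for 3 or 4 when an array was left out. Without the dye coefficient CDK2AP1 was lost (adjusted P = 0.0804), with 1 probe per gene CCND1 (0.02, adjusted P = 0.880), and CDC42BPA was called throughout (adjusted P up to 0.0129). Without replicate 4 of 1 wk CDC5L was added. The call of CDK2AP1 at 7 wk was lost with no centring (0.46, adjusted P = 0.276), no dye coefficient (0.51, adjusted P = 0.565), no filter on missing spots (adjusted P = 0.0580) and surrounding spots subtracted (0.52, adjusted P = 0.252), each leaving a count of 0. The t-test of the 7 wk ratios against 0 gave 3 genes before adjustment (CCND1, CDC42EP4 and RFC1, against 5.72% of all genes). It gave 0 after Benjamini-Hochberg. At 7 wk array weights gave 3 (CCND1, CDC42BPA and CDK2AP1), and leaving out an array gave 0 to 1. At 9 wk the count was 1 (CDK2AP1) with probes measured on all 24 arrays, array weights or blocks centred, and 0 to 1 when an array was left out (1 without replicate 1 of 5 wk or replicate 2 of 9 wk). Counts at 1, 3, 5 and 11 wk, of late against early growth and of the interaction were 0 in all 10 alternatives and all 24 omissions.

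With a replicate block in place of the dye coefficient the 3 genotype calls remained, among 106 genes called against 126, and the 7 wk call of CDK2AP1 was lost (adjusted P = 0.0819), leaving a count of 0. With age means and the dye coefficient removed, arrays of the same number had a mean r of -0.07 over 60 pairs. Over 180 pairs of other numbers it was 0.02. Arrays of the same number share a dye orientation, so removing the dye coefficient by itself lowers their r. These values therefore cannot tell whether the numbers paired the birds.

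Some genotype effects changed sign, none of them called. CDC20, at -0.23 as reported, became 0.0476 and RFC2 0.0569, both with complete probes (24 arrays) and with a single probe per gene. CDKN2A became -0.0073 with equal spread, -0.0155 with blocks centred and -0.0203 with surrounding spots subtracted. CCNB1 became -0.0055 with array weights and -0.0053 with surrounding spots subtracted, CDK9 -0.0274 with blocks centred and -0.0422 with surrounding spots subtracted, and CDK19 0.0062 and the median of the group -0.0014 with the latter setting. Leaving out an array gave ranges of -0.416 to 0.170 for CCNA2, -0.053 to 0.081 for CCNB1, -0.201 to 0.0128 for CDC42EP4, -0.0273 to 0.0775 for CDK9, -0.0166 to 0.036 for CDKN2A and -0.0255 to 0.136 for ORC4. The causes were not tested. Signal over background was not used here, so dim spots could not be told from bright ones.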
